A study of Mus musculus with 22 samples.

Results

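The mitochondrial genome of the mouse carries 37 annotated genes whose symbols start with mt-, and their RNA was followed here in embryonic hearts with and without a conditional knockout (cKO) of Prdm16. All genes with that prefix in GENCODE M21 were taken, 37 of the 54356 genes with an estimate in the files: 13 protein genes, 2 rRNA genes and 22 tRNA genes. The prefix rule itself used no measured value, but members, gene lists and tests were chosen with earlier results of these data known. The 22 libraries came from C57BL/6 hearts at E13.5. They comprised 3 cKO and 3 control whole hearts, 4 cKO and 4 control left ventricles (LV), and 4 cKO and 4 control right ventricles (RV). The control libraries are titled WT, carry the entry Mock for genetic manipulation and are described as littermate controls. The labels used here do not name the Cre driver of the knockout, so the cells in which Prdm16 was deleted are not given, and they say neither how many hearts went into a library nor which libraries form the pairs that the series' design mentions. P-values therefore measure only the spread between libraries, which may be partly technical.

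Mitochondrial DNA is transcribed from both strands as long polycistronic RNAs, which are cut at the tRNAs that lie between most of the rRNA and protein genes. The protein genes encode core subunits of respiratory complexes I (the Nd genes), III (Cytb), IV (the Co genes) and V (the Atp genes), while all other subunits and the whole transcription and processing machinery come from the nucleus. Heart muscle depends on this respiratory chain and is rich in mitochondria, increasingly so as it matures. The genes have no introns, and most mature messages receive a short poly(A) tail.

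Of the 37 genes, 28 lie on the strand whose transcripts read in map order (annotated plus) and 9 on the other, the latter, called light strand genes, being mt-Nd6 and 8 tRNA genes. The sequences shown here are those on which the reading of the counts depends, taken from GENCODE M21 transcripts (GRCm38) and given 5′ to 3′. At 2 places 2 reading frames overlap on 1 bicistronic message, so a read in the shared bases, printed in capitals, belongs to either gene. The end of mt-Atp8 (chrM:7766-7969) shares 43 bases with the start of mt-Atp6 (chrM:7927-8607), and the end of mt-Nd4l (chrM:9877-10173) shares 7 bases with the start of mt-Nd4 (chrM:10167-11544).
mt-Atp8 into mt-Atp6: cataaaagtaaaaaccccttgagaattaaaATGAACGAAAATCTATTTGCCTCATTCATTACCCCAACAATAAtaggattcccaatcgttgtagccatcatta
mt-Nd4l into mt-Nd4: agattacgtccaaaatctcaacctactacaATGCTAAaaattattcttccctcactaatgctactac

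A second set of shared sequence lies in the nucleus. On chromosome 1 of GRCm38, 7 unprocessed pseudogenes on the minus strand matched a mitochondrial protein gene over their aligned length at 99% identity or more. These were Gm10925 (mt-Atp6), Gm28661 (mt-Co2), Gm28437 (mt-Co3), Gm28439 (mt-Nd4) and Gm10222 (mt-Nd4l), all at 100% identity, Gm29216 (mt-Co1) at 99.79% and Gm28438 (mt-Nd3) at 99.71%. The last 2 each differed from the mitochondrial gene by 1 aligned base. Counted from the first base of the mitochondrial gene, the change was T3C between mt-Nd3 (chrM:9459-9806) and Gm28438 (chr1:24612775-24613119) and A1066T between mt-Co1 (chrM:5328-6872) and Gm29216 (chr1:24615706-24616197). The windows that hold these bases are shown because they are the only aligned letters by which a read could be assigned to 1 of the pair, with the differing base in capitals.
mt-Nd3: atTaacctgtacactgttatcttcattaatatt
Gm28438: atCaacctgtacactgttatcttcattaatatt
mt-Co1: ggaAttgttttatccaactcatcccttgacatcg
Gm29216: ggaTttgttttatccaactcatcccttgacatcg
No near-identical copy was found for mt-Nd1, mt-Nd2, mt-Nd5, mt-Nd6, mt-Cytb, mt-Rnr1 or mt-Rnr2. The copies together held 0.118% to 0.301% of a library's reads. Gm28438 held 51.1% to 80.8% of all reads assigned to it and mt-Nd3 together. This share of the pair was 1.82% to 20.6% for Gm10925 with mt-Atp6 and 1.53% to 23.5% for Gm28439 with mt-Nd4. For Gm29216 with mt-Co1 it was 0.0% to 6.09%. Gm28439 aligned to 876 of the 1378 bases of mt-Nd4 and Gm29216 to 483 of the 1545 of mt-Co1. Their shares therefore also count member reads that lie outside the copy. Gm10222 was listed at 0 in all ventricle libraries and held up to 32.9% of its pair in the whole heart, Gm28661 held at most 0.0957% of its pair, and Gm28437 was listed at 0 throughout. Values of mt-Nd3, and to a lesser degree of mt-Atp6, mt-Nd4, mt-Nd4l and mt-Co1, therefore depend on how the estimation split reads that fit both.

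The libraries held 38515999 to 61887531 reads in genes for the whole heart and 14486495 to 22795911 for the ventricles. Prdm16 itself was at 2.8 to 3.47 TPM (abundance scaled to transcript length and library) in cKO against 5.17 to 7.92 in control whole hearts, 3.04 to 5.75 against 5.37 to 8.69 in LV, and 3.19 to 3.88 against 4.66 to 6.66 in RV. It fell in each (log2 fold change -1.04, SE 0.09, in whole heart, -1.19, SE 0.07, in LV and -0.75, SE 0.07, in RV; edgeR's quasi-likelihood test, adjusted p = 0.00192, 6.47e-09 and 2.96e-06). TPM ranges of the LV groups overlapped. Cardiomyocyte and ventricular markers were abundant in every library, and of the marker genes examined only Sln was listed at 0, in 1 library. Whole heart control 1 stood apart, with 18882 genes expected at the lowest common depth against 21514 to 23090 in the other libraries. Group sums of the 9 marker lists that differed between groups are given below.

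Most tRNA genes were too low to use. A gene was called usable when it passed edgeR's filter on low counts, which left 18 of the 37 in the whole heart and 17 in the ventricles: the 13 protein genes, the 2 rRNA genes, mt-Tl1 and mt-Tw, and in the whole heart also mt-Ti. Of the other 19 tRNA genes, 16 stayed under 10 reads in every library and the highest value among all 19 was 21 reads, of mt-Ts1. mt-Ts2 was listed at 0 in all 22 libraries, where a count of 0 allows up to 3 reads, or 0.0485 CPM in the deepest and 0.207 CPM in the shallowest library (CPM being counts per 1e6 reads; counting error only). The tRNA genes are 59 to 75 bases long, and the deposited effective length was 3 for each of them, so their TPM have no use as levels. Together they took at most 0.012% of the mitochondrial reads of a library. Whether these reads came from mature tRNA or from uncut precursor RNA was not tested. The best covered, mt-Tl1 (leucine tRNA, chrM:2676-2750), had 18 to 206 reads per library, and its gene is shown as the only tRNA with at least 10 reads in every library.
mt-Tl1: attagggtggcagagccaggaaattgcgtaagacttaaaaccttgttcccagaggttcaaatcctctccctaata
In CPM scaled further with TMM factors, separately for whole hearts and ventricles, as all CPM from here on, mt-Tl1 was at 1.38, 1.41, 1.19 and 1.48 in LV cKO and 1.3, 1.32, 1.55 and 0.957 in LV control libraries. These groups overlapped, as did those of mt-Tw, the tryptophan tRNA, at 0.329 to 0.861 CPM in LV cKO and 0.744 to 1.61 in LV control libraries.

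Among protein genes, levels per length differed widely although most share a promoter. In LV control libraries the highest reliable TPM belonged to mt-Co2, at 21600 ± 854 (SD, n = 4). It was followed by mt-Atp6 at 16800 ± 1380, mt-Co1 at 16700 ± 614 and mt-Co3 at 16200 ± 988, which did not differ beyond their spread. mt-Cytb stood at 9840 ± 547, mt-Nd1 at 7120 ± 746, mt-Nd2 at 5440 ± 398, mt-Nd4 at 5270 ± 263 and mt-Nd5 at 3840 ± 298. mt-Nd2 and mt-Nd4 overlapped, and the others in this run were separated by more than 1 SD. The complex IV genes thus held 3 of the 4 highest places and the complex I genes the lowest. The only protein gene of the other strand, mt-Nd6, was lowest of all at 129 ± 22.5 TPM. mt-Rnr2 and mt-Rnr1, which encode the rRNAs of the large and small mitochondrial ribosomal subunits, were at 912 ± 36 and 670 ± 31.4 TPM. The libraries were made with an mRNA kit, so these values are not levels of the total rRNA. Whether the kit took up the mt-Nd6 message as well as the others was not tested. mt-Atp8, mt-Nd3 and mt-Nd4l were left out of this order, because the files give them a fixed effective length of 10, 99 and 49 bases for genes of 204, 348 and 297 bases. The short effective length put mt-Atp8 at 92100 ± 7940 TPM on a median of 17004.5 reads.

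The share of all reads that fell on the 37 genes was lower in cKO than in control ventricles and overlapped between genotypes in the whole heart. In LV it was 5.73%, 5.91%, 5.8% and 5.34% in cKO and 6.55%, 6.88%, 6.77% and 6.3% in control libraries. In RV it was 6.16%, 6.42%, 6.46% and 5.65% in cKO and 7.08%, 6.65%, 7.38% and 6.8% in control libraries. All 4 cKO libraries lay below all 4 control libraries in each ventricle. In the whole heart it was 5.69%, 5.13% and 5.74% in cKO and 4.73%, 5.95% and 5.39% in control libraries, the lowest being control 1. No test was run on this sum. A lower share in bulk RNA cannot tell fewer cardiomyocytes from less mitochondrial RNA per cell.

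**Figure D1:**
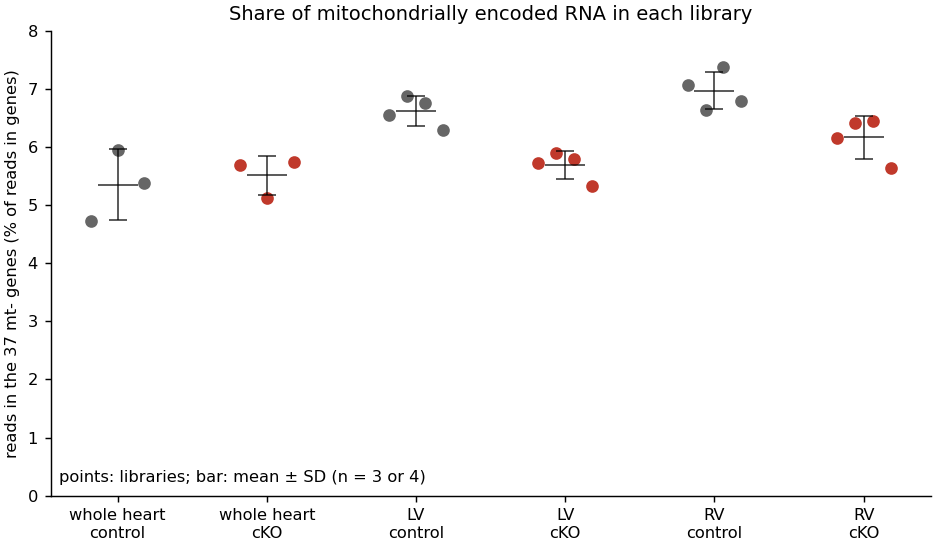
Percent of a library's gene reads on the 37 mitochondrially encoded genes (y axis) for each tissue and genotype (x axis); points are libraries, bars the mean ± SD. The LV cKO libraries sit at 5.34% to 5.91% and the LV controls at 6.3% to 6.88%, while the whole heart groups overlap.

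Cell type markers moved with genotype in all 3 tissues. Their counts are to be read against the shares of all genes tested that were called in the same comparison. These were 12.3% higher and 13.4% lower in LV, 6.12% and 4.19% in RV, and 1.96% and 2.07% in the whole heart. The count of 1 in 9 erythroid markers in LV was near its share. Haemoglobin reads made up 1.3% to 3.25% of LV cKO and 0.991% to 1.92% of LV control libraries, and 1.13% to 2.24% of RV cKO and 0.509% to 1.24% of RV control libraries. With haemoglobin taken out of the total, the mitochondrial share was 5.48% to 6% in LV cKO against 6.42% to 6.99% in control, and 5.74% to 6.61% in RV cKO against 6.69% to 7.42% in control libraries, again without overlap. The summed TPM of 7 cardiomyocyte markers was 18200 to 19000 in LV cKO and 19000 to 20300 in LV control libraries, with 4 of 7 genes lower and a median log2 fold change of -0.22. The 5 endothelial and endocardial markers summed to 302 to 335 TPM in LV cKO and 248 to 259 in control, with 4 genes higher. The 4 epicardial markers summed to 89.8 to 99.4 and 67.1 to 73.9, with 3 higher, and the 3 macrophage markers to 27.3 to 33.6 and 20.4 to 22.6, with 2 higher. Of 3 ventricular markers 3 were lower in LV cKO (21200 to 27200 against 30100 to 32600 TPM), of 4 atrial markers 3 were higher (4700 to 5540 against 3240 to 3490), of 3 mesenchymal markers 1 was higher, of 9 erythroid markers 1 was higher and of the left ventricular markers Hand1 and Tbx5 1 was higher. In RV cKO, 2 of 4 atrial markers were higher (5730 to 6000 against 4120 to 4470 summed TPM), 5 of 9 erythroid, 1 of 5 endothelial and endocardial, 1 of 4 epicardial and 1 of 2 left ventricular markers were higher, and none of the 7 cardiomyocyte markers passed (22300 to 24600 against 21500 to 23400). In whole heart cKO, 3 of 3 ventricular markers were lower (11900 to 12300 against 14700 to 15300 TPM), as were 2 of 7 cardiomyocyte markers (15100 to 16300 against 16100 to 17600). There 2 of 4 atrial markers (4700 to 4810 against 3280 to 3700), 2 of 5 endothelial and endocardial markers (311 to 337 against 262 to 286) and 1 of 2 left ventricular markers were higher, and the 3 mesenchymal markers summed to 821 to 915 against 683 to 711 with none called. The part of these shifts in the mitochondrial values was not tested beyond the haemoglobin correction.

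In LV, 9 of 17 usable mitochondrial genes fell in cKO and none rose (edgeR's quasi-likelihood test, adjusted p under 0.05 over 16448 genes). They were both rRNA genes, the complex I genes mt-Nd1 and mt-Nd2, the complex IV genes mt-Co1, mt-Co2 and mt-Co3, the complex V gene mt-Atp6 and the complex III gene mt-Cytb. The falls were small, between 1.13-fold and 1.31-fold. In this comparison 25.6% of all genes tested were called, and 13.4% of all genes tested were called lower, so the members' count lay above the background. The 9 calls are not 9 independent observations, as all these genes lie on 1 strand and are cut from shared precursor RNAs. The median log2 fold change over the 13 protein genes was -0.22, beside -0.00 over all genes tested.

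mt-Co2, which encodes the subunit that takes electrons from cytochrome c, showed the largest called fall. It was at 5912, 5943, 5875 and 5444 CPM in LV cKO and 7471, 7883, 7688 and 7298 in LV control libraries. All cKO libraries were below all controls (log2 fold change -0.39, SE 0.06; edgeR adjusted p = 8.04e-05). mt-Nd1, a membrane subunit of complex I encoded just behind the rRNA genes, was at 3640, 3891, 3706 and 3155 CPM in cKO and 4639, 5053, 4845 and 4011 in control libraries. These did not overlap either (-0.37, SE 0.09; edgeR adjusted p = 0.00542). Its neighbour mt-Nd2, also of complex I, was at 2328, 2670, 2563 and 2384 CPM against 2785, 3314, 3220 and 2842, again without overlap (-0.29, SE 0.08; edgeR adjusted p = 0.00905).

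mt-Co1, the catalytic subunit of complex IV and the member with the most reads, was at 15804, 15230, 15694 and 13448 CPM in LV cKO and 18139, 18005, 18174 and 17364 in control libraries. It fell by 0.25 on the log2 scale (SE 0.06; edgeR adjusted p = 0.00708) with no overlap. mt-Co3, the third complex IV subunit encoded here, was at 5587, 5398, 5473 and 5342 CPM against 6673, 6572, 6357 and 5969, also apart (-0.23, SE 0.06; edgeR adjusted p = 0.00806). mt-Atp6, the proton channel subunit of ATP synthase, was at 4819, 5501, 5726 and 4884 CPM against 5947, 6706, 6440 and 5582. Its groups overlapped, since cKO 3 exceeded control 4 (-0.24, SE 0.07; edgeR adjusted p = 0.0253). mt-Cytb, the only complex III subunit encoded in mitochondria, was at 6395, 6278, 6368 and 5561 CPM against 7140, 7207, 7002 and 6568, without overlap (-0.18, SE 0.06; edgeR adjusted p = 0.0374).

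The rRNA genes gave similar results at far lower read numbers. mt-Rnr1 was at 379, 337, 364 and 348 CPM in LV cKO and 421, 443, 403 and 447 in LV control libraries (-0.26, SE 0.05; edgeR adjusted p = 0.000607). mt-Rnr2 was at 908, 925, 955 and 917 CPM against 1076, 1122, 1018 and 1009 (-0.19, SE 0.04; edgeR adjusted p = 0.00448). Neither gene's groups overlapped. In all, 8 of the 17 usable genes were lower in every LV cKO than in every LV control library, where 15% of all genes tested were so separated, and none was higher. Both calls nearest the threshold were lost when any of several libraries was left out. The adjusted p of mt-Atp6 rose to 0.0808 without cKO 1, 0.0807 without cKO 4, 0.0866 without control 2 and 0.0704 without control 3. That of mt-Cytb rose to between 0.0558 and 0.125 without cKO 2, cKO 4, control 1, control 2 or control 3. In edgeR it was 0.0616 with no filter and 0.0501 with length-scaled counts. On log2(TPM + 1) with limma, mt-Co1, mt-Co3, mt-Atp6 and mt-Cytb no longer passed (adjusted p = 0.0833, 0.0796, 0.105 and 0.149).

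Of the 8 usable genes that did not pass in LV, 4 lie late on the plus strand: mt-Nd3, mt-Nd4l, mt-Nd4 and mt-Nd5. mt-Nd4l, mt-Nd4 and mt-Nd5, complex I subunits that follow one another on the map, differed by -0.08 (SE 0.07), -0.07 (SE 0.05) and -0.09 (SE 0.07) between LV cKO and control. mt-Nd5 was at 4168, 4556, 4492 and 3803 CPM in cKO and 4434, 4919, 4684 and 4138 in control libraries, and mt-Nd4 at 4005, 4462, 4329 and 4490 against 4440, 4876, 4526 and 4261. Both pairs of groups overlapped. mt-Atp8, a small ATP synthase subunit, had a log2 fold change of -0.22 (SE 0.08; edgeR adjusted p = 0.0567), and passed without cKO 3 (0.0424) or without control 1 (0.0289). mt-Nd6, the complex I subunit read from the other strand, spread most, at 42.4, 133, 34.6 and 146 CPM in LV cKO and 48, 71.9, 58.5 and 56.9 in control libraries. The cKO libraries fell on both sides of the controls (0.60, SE 0.35; edgeR adjusted p = 0.244). mt-Nd6 overlaps mt-Nd5 by 14 bases on the opposite strand, and whether the estimation used the strand of a read is not given in the sources used here.

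**Figure D2:**
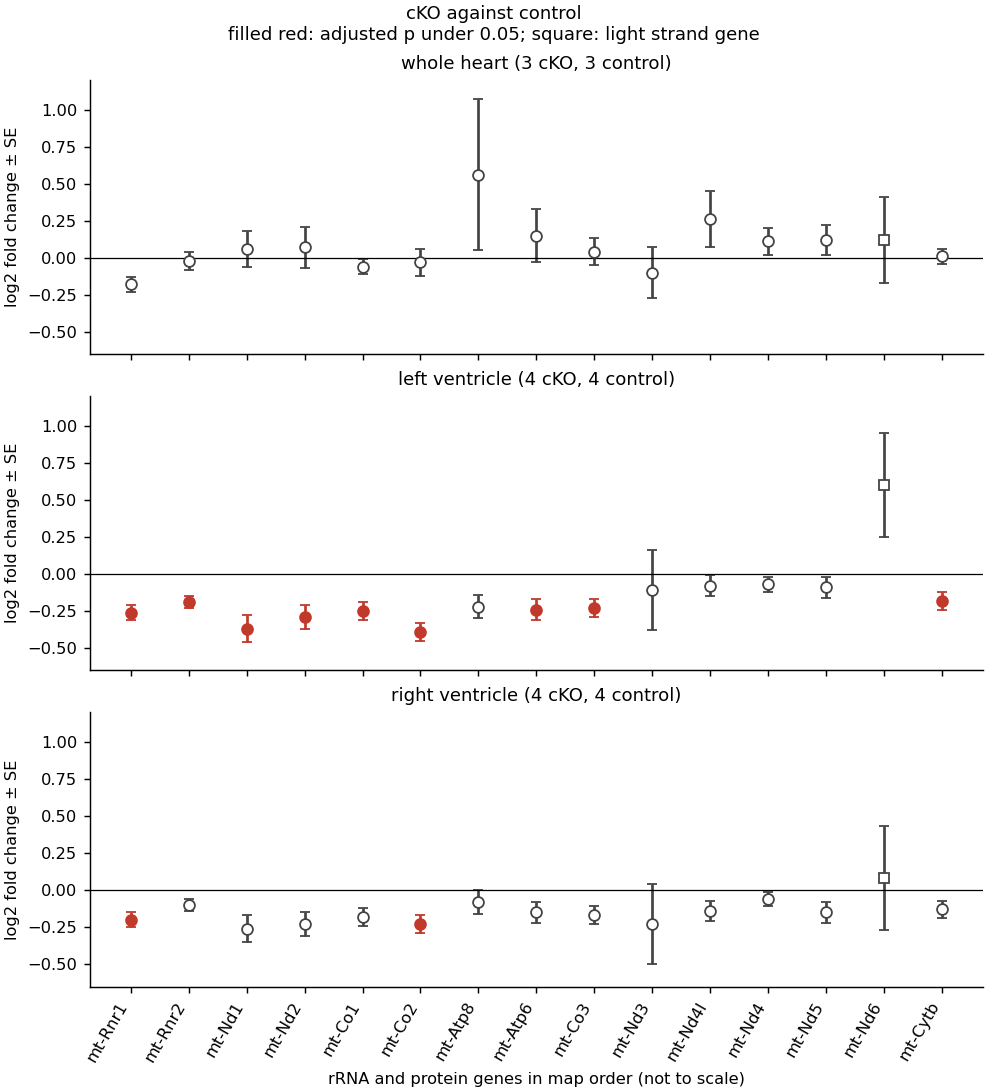
Log2 fold change of cKO against control ± SE (y axis) for the 15 rRNA and protein genes in map order (x axis), in whole heart, LV and RV; filled red points passed an adjusted p of 0.05. In LV the called genes run from mt-Rnr1 to mt-Co3 with mt-Atp8 left out, followed by 5 genes that were not called and by mt-Cytb; in RV only mt-Rnr1 and mt-Co2 were called and in the whole heart none.

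Over the 12 protein genes of the plus strand, the LV fold change was ranked with map position. Spearman's rho was 0.85 and Pearson's r 0.72, so that genes nearer the start tended to have fallen more. The same values were 0.68 and 0.59 in RV and 0.14 and 0.05 in the whole heart. For LV against RV they were 0.69 and 0.53 in control and 0.74 and 0.67 in cKO hearts, so that a ranking with map position was also found between the control ventricles. With the reads of the nuclear copies added they were 0.69 and 0.60 in LV, 0.60 and 0.59 in RV and 0.21 and 0.09 in the whole heart. The 12 points share their libraries, their precursor RNA and, for 2 pairs, overlapping sequence, so they are given as a description with no test. The order was not strict. mt-Cytb, last on the map, was called in LV, and mt-Co2 (-0.39) fell more than the earlier mt-Nd1 (-0.37). With its nuclear copy added, the later mt-Nd3 was also at -0.39.

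The ratio of mt-Nd5 to mt-Nd1 reads compares a late with an early gene within single libraries, free of scaling between them. These genes have no near-identical nuclear copy, and the pair was chosen after the values were seen. In LV the ratio was 1.15, 1.17, 1.21 and 1.21 in cKO and 0.96, 0.97, 0.97 and 1.03 in control libraries, with no overlap. In RV it was 0.95, 0.8, 0.77 and 0.86 in cKO and 0.77, 0.73, 0.78 and 0.84 in control libraries, which overlapped. In the whole heart it was 1.03 in each cKO library and 0.99, 0.92 and 1.05 in the controls. All RV libraries were below all LV libraries, those of the LV controls included. The corresponding ratio of mt-Cytb to mt-Nd1 was 1.76, 1.61, 1.72 and 1.76 in LV cKO and 1.54, 1.43, 1.45 and 1.64 in LV control libraries, which overlapped. RNA integrity numbers are stated as a range of 6.1 to 10 for the series and not by library, and the part of RNA integrity in these ratios was not tested.

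**Figure D3:**
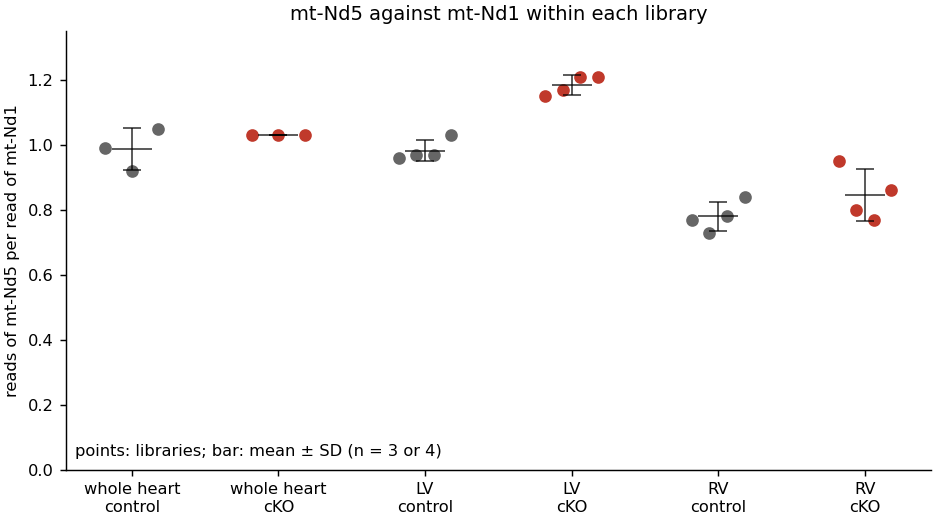
Reads of mt-Nd5 per read of mt-Nd1 (y axis) in each library by tissue and genotype (x axis); points are libraries, bars the mean ± SD. The 4 LV cKO libraries lie at 1.15 to 1.21, above the LV controls at 0.96 to 1.03, and the RV groups overlap.

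The LV result of mt-Nd3, a small complex I subunit, depended on the nuclear copy. By the reads assigned to it alone, it was at 85.7, 158, 203 and 213 CPM in LV cKO and 136, 237, 157 and 183 in LV control libraries. These groups overlapped widely (-0.11, SE 0.27; edgeR adjusted p = 0.807). With the reads of Gm28438 added, an alternative chosen after seeing the data, it was at 419, 508, 497 and 436 CPM in cKO and 569, 680, 635 and 546 in control libraries. The groups then did not overlap, the SE shrank to 0.10 and the gene passed (-0.39; edgeR adjusted p = 0.00638). Within LV cKO the copy's share of the pair ran from 51.1% in cKO 4 to 79.6% in cKO 1, 2 libraries whose summed values were 436 and 419 CPM. In RV the sum was 511, 627, 685 and 550 CPM in cKO and 621, 717, 776 and 690 in control libraries, which overlapped (-0.24, SE 0.10; edgeR adjusted p = 0.131). For mt-Atp6 and mt-Co1, adding the copies left the fold changes between LV cKO and control at -0.22 and -0.25 (edgeR adjusted p = 0.0206 and 0.00741). Between the ventricles, adding them moved 3 calls, which are given with those comparisons.

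**Figure D4:**
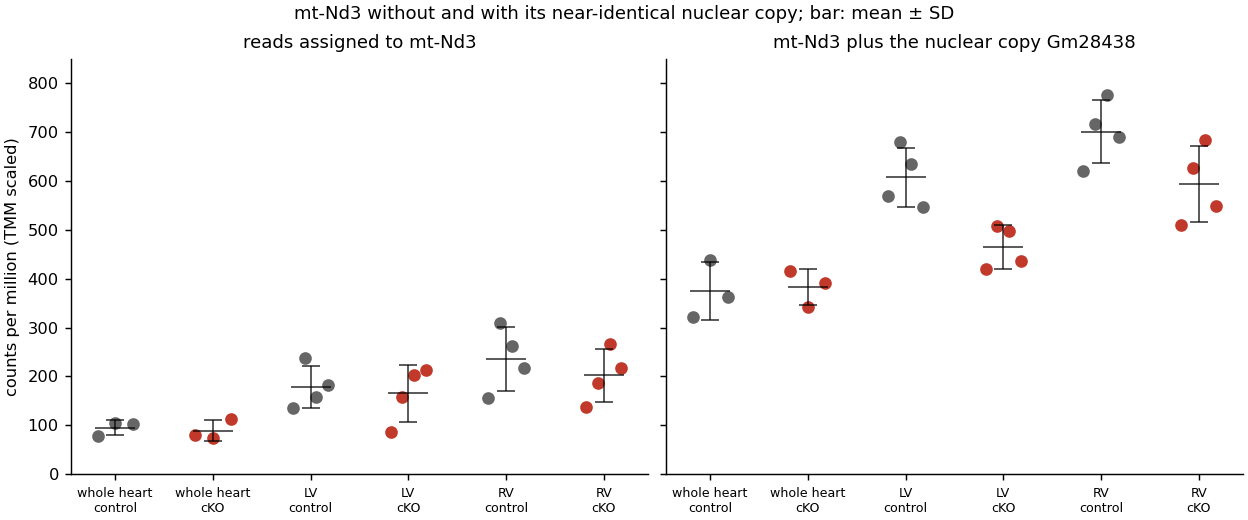
CPM of mt-Nd3 alone (left) and of mt-Nd3 plus the nuclear copy Gm28438 (right) by tissue and genotype; points are libraries, bars the mean ± SD. Alone, the LV groups overlap at 85.7 to 213 (cKO) and 136 to 237 (control), and summed they lie apart at 419 to 508 and 546 to 680.

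In RV, 2 of 17 usable genes fell in cKO, against 10.3% of all genes tested called and 4.19% called lower in that comparison. The share called among the members was thus near the background. mt-Rnr1 was at 506, 465, 470 and 441 CPM in RV cKO and 521, 557, 549 and 531 in RV control libraries, without overlap (-0.20, SE 0.05; edgeR adjusted p = 0.0133). mt-Co2 was at 7493, 7840, 8196 and 6892 CPM against 9090, 8079, 9572 and 8877. Its groups overlapped, as cKO 3 exceeded control 2 (-0.23, SE 0.06; edgeR adjusted p = 0.0151). mt-Nd2 was lower in all cKO libraries, at 2730, 3139, 3204 and 2614 CPM against 3245, 3308, 3777 and 3351, but missed the threshold (-0.23, SE 0.08; edgeR adjusted p = 0.0693). Such separation was seen for 2 of 17 members (mt-Rnr1 and mt-Nd2) and in this direction for 5.14% of all genes tested, and no member was separated the other way, as 7.61% of all genes were.

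The RV fold changes were negative for 12 of 13 protein genes, with a median of -0.15 beside -0.01 over all genes. mt-Nd1 differed by -0.26 (SE 0.09; edgeR adjusted p = 0.079), mt-Co1 by -0.18 (SE 0.06; 0.0939) and mt-Co3 by -0.17 (SE 0.06; 0.0858). The count of 2 moved with the processing: DESeq2 called 6 genes lower, library totals as the only scaling 5, and limma on log2(TPM + 1) none. RV control 2, with the lowest mitochondrial share of its group, weighed most. Without it 4 genes passed, mt-Co1 (-0.23, edgeR adjusted p = 0.00671) and mt-Co3 (-0.22, 0.00742) among them, while mt-Co2 was lost without cKO 4 (0.0516) or control 3 (0.0557), leaving 1 gene each.

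Whether the knockout's effect differed between the ventricles was tested directly. None of the 17 usable genes passed, where 1.43% of all genes did (0.462% higher and 0.973% lower), and none had an unadjusted p under 0.05 in edgeR. DESeq2 also called none. The median difference (LV effect minus RV effect) over the 13 protein genes was -0.06 on the log2 scale. The nearest was mt-Co2 at -0.16 (SE 0.08; edgeR adjusted p = 0.392). The 9 calls in LV and 2 in RV are thus not shown to be a difference between ventricles. Prdm16 itself fell further in LV (LV effect minus RV effect -0.44, SE 0.10; edgeR adjusted p = 0.0404). Among controls it was higher in LV than in RV (0.36, SE 0.07; edgeR adjusted p = 0.00131). Among cKO hearts LV and RV were not called different (-0.08, SE 0.07; edgeR adjusted p = 0.459), so a lower remaining level in LV is not shown.

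In the whole heart, none of 18 usable genes passed in either direction, where 4.03% of all genes tested did (1.96% higher and 2.07% lower). mt-Rnr1 was the only one with an unadjusted p under 0.05. It was at 422, 387 and 425 CPM in cKO and 482, 456 and 460 in control libraries, without overlap (-0.18, SE 0.05; edgeR adjusted p = 0.102), and it passed in DESeq2 (adjusted p = 0.00758) and when all tissues were fitted together (0.0244). It was the only member lower in every cKO library, where 12.9% of all genes were. The other genes had fold changes of both signs, and the median over protein genes was 0.07. mt-Co2, called in both ventricles, was at 5590, 4933 and 5524 CPM in cKO and 4888, 6169 and 5345 in control whole hearts (-0.03, SE 0.09). The short mt-Atp8 varied from 98.6 to 383 CPM over the 6 libraries with no order by genotype. Leaving out control 1, or any other library, still gave no call.

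The ventricles were also compared with each other within each genotype. Among controls, 4 of 17 usable genes were lower in LV than in RV and none was higher, against 21% of all genes called (12% lower and 9.02% higher). The members' share was near that called in either direction and above that called lower. The 4 genes were both rRNA genes, mt-Nd1 and mt-Co2, which lie on 1 strand and are not independent. mt-Rnr2 was at 1076, 1122, 1018 and 1009 CPM in LV and 1314, 1412, 1410 and 1294 in RV control libraries, without overlap (-0.36, SE 0.04; edgeR adjusted p = 3.17e-05). mt-Rnr1 gave -0.33 (SE 0.05; edgeR adjusted p = 0.000154), mt-Co2 -0.23 (SE 0.06; 0.00772) and mt-Nd1 -0.29 (SE 0.09; 0.0252), each again without overlap, a separation in this direction that 11% of all genes showed (9.75% in the other, with no member). mt-Nd1 was lost without LV control 4 (0.0897), RV control 1 (0.0653) or RV control 3 (0.0788). Without RV control 2, 6 genes passed, mt-Co1 (-0.16, 0.0304) and mt-Co3 (-0.19, 0.00988) being added. With nuclear copies added, mt-Atp6 passed too (-0.20, SE 0.07; edgeR adjusted p = 0.0426).

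Among cKO hearts, 9 of 17 usable genes were lower in LV than in RV and none was higher, against 32.8% of all genes called (18.3% lower). Among the genes called, mt-Rnr2 had the largest difference, at 908, 925, 955 and 917 CPM in LV and 1290, 1266, 1323 and 1188 in RV cKO libraries (-0.45, SE 0.04; edgeR adjusted p = 1.56e-06). mt-Rnr1 and mt-Nd1 both gave -0.40 (SE 0.05 and 0.09; edgeR adjusted p = 1.16e-05 and 0.00221), and mt-Co2 -0.39 (SE 0.06; 6.24e-05). mt-Atp8 (-0.31, SE 0.08), mt-Nd2 (-0.23, SE 0.08), mt-Atp6 (-0.23, SE 0.07), mt-Co3 (-0.20, SE 0.06) and mt-Co1 (-0.18, SE 0.06) were the other genes lower in LV. In this direction 6 genes did not overlap, as did 18.7% of all genes. mt-Nd4 and mt-Nd5 differed by 0.01 (SE 0.05) and 0.09 (SE 0.07). With nuclear copies added, mt-Co1 no longer passed (-0.17, SE 0.06; edgeR adjusted p = 0.0525) and mt-Nd3 did (-0.35, SE 0.10; 0.00959). With library totals as the only scaling the count fell to 5, and mt-Co1, mt-Co3, mt-Nd2 and mt-Atp6 were lost (adjusted p = 0.143, 0.0592, 0.104 and 0.0897). Under that scaling the split of all calls also moved, from 2387 higher and 3011 lower to 3931 and 2004 among cKO hearts and from 1483 and 1979 to 2290 and 1294 among controls. Without LV cKO 4, or without RV cKO 2 or RV cKO 3, 6 genes passed. The comparisons within control and within cKO hearts use other libraries from each other but share them with the comparisons between genotypes.

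**Figure D5:**
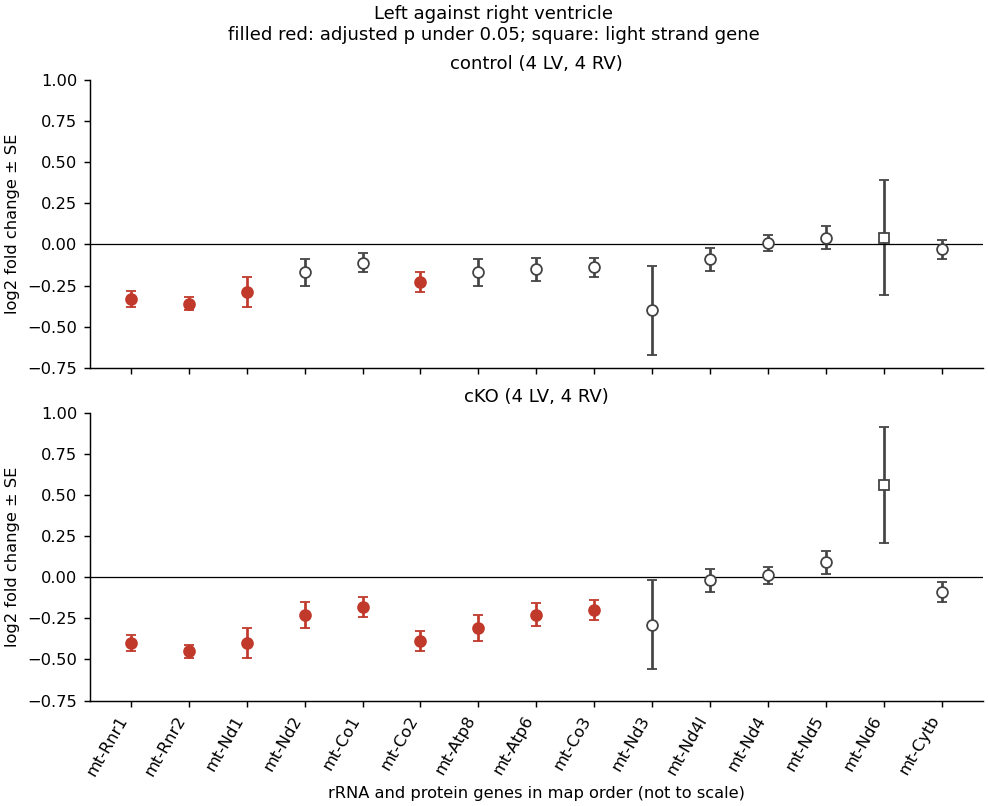
Log2 fold change of LV against RV ± SE (y axis) for the 15 rRNA and protein genes in map order (x axis), in control and cKO hearts; filled red points passed an adjusted p of 0.05. The rRNA genes lie lowest among the called genes in cKO (mt-Rnr2 at -0.45, mt-Rnr1 at -0.40), next to mt-Nd1, and mt-Nd4, mt-Nd5 and mt-Cytb lie near 0 in both.

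Cell type markers also differed between the ventricles. Haemoglobin made up 0.991% to 1.92% of LV and 0.509% to 1.24% of RV control libraries, and 3 of 7 cardiomyocyte markers were lower in control LV (19000 to 20300 against 21500 to 23400 summed TPM). Also in control LV, 2 of 4 atrial markers were lower. There 2 of 2 left ventricular, 1 of 4 epicardial, 1 of 3 macrophage and 1 of 9 erythroid markers were higher. Of all genes 12% were lower and 9.02% higher, the erythroid count being near that share. In cKO, 5 of 7 cardiomyocyte markers (18200 to 19000 against 22300 to 24600) and 3 of 3 ventricular markers were lower in LV. There 4 of 5 endothelial and endocardial, 4 of 4 epicardial, 3 of 3 macrophage, 2 of 3 mesenchymal and 2 of 2 left ventricular markers were higher. Of 4 atrial markers 1 was higher and 2 were lower. Of all genes 18.3% were lower and 14.5% higher. Their part in the LV to RV differences was not tested.

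The nuclear genes that transcribe, process and use mitochondrial RNA were taken from 10 lists, and in LV cKO all of their calls but 1 were decreases. The shares to read these counts against are the 25.6% of all genes called in LV and the 13.4% called lower. Among 11 genes for transcription of mitochondrial DNA, 3 fell and none rose (median -0.12): Polrmt, the mitochondrial RNA polymerase (-0.14), Tfam, which binds and packs the DNA and starts transcription (-0.14), and the topoisomerase Top1mt (-0.28). Of 13 replication genes 4 fell (median 0.03), among them the helicase Twnk (-0.34) and the nuclease Mgme1 (-0.36). Of 14 processing genes 8 fell (median -0.18), among them the RNase P subunit Hsd17b10 (-0.32), the poly(A) polymerase Mtpap (-0.23) and the methyltransferases Mrm1 (-0.41), Mrm3 (-0.42) and Nsun4 (-0.27), which act on rRNA. Of 12 genes for stability and decay of mitochondrial messages 7 fell (median -0.22). Lrpprc, whose product stabilises them, fell by 0.44 (SE 0.07; edgeR adjusted p = 9.16e-05), Fastkd1 by 0.50 (SE 0.06; 1.95e-05) and Tbrg4 by 0.40 (SE 0.06; 0.000147).

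Larger falls were found among nuclear regulators. Of 10, 6 fell in LV cKO (median -0.17), with Perm1, a muscle gene tied to oxidative metabolism, at -1.74 (SE 0.23; edgeR adjusted p = 3e-05), the coactivator Ppargc1a at -0.85 (SE 0.06; 2.88e-08), Ppargc1b at -0.72 (SE 0.09; 1.45e-05) and the nuclear receptor Esrra at -0.40 (SE 0.05; 1.84e-05). Of 17 mitochondrial tRNA synthetases 10 fell (median -0.20), led by Ears2, which charges the glutamate tRNA, at -0.99 (SE 0.06; edgeR adjusted p = 1.54e-08). Of the genes for their substrates, the mitochondrial tRNAs, only mt-Tl1 and mt-Tw had usable reads in LV. The libraries were made with an mRNA kit, and whether these reads came from mature tRNA was not tested.

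Nuclear partners of the mitochondrially encoded subunits were mostly lower in LV cKO. The median log2 fold change was -0.33 for complex I (31 of 37 lower, none higher), -0.41 for complex III (9 of 9 lower), -0.41 for complex IV (13 of 14 lower, 1 higher) and -0.37 for complex V (15 of 16 lower), beside -0.22 for the 13 mitochondrial protein genes. The difference between these medians was not tested. Cyc1, the cytochrome c1 of complex III, fell by 0.60 (SE 0.06; edgeR adjusted p = 3.79e-06), Cox7a1, a heart and muscle form of a complex IV subunit, by 1.01 (SE 0.10; 1.3e-06), and Atp5b, the catalytic subunit of ATP synthase, by 0.47 (SE 0.06; 1.44e-05). The complex IV gene that rose was Cox6a2, another heart and muscle form (0.45, SE 0.06; edgeR adjusted p = 1.81e-05), which also rose in RV (0.52, SE 0.06; 8.81e-06). The cell type markers given above moved in the same libraries, and their part in these counts was not tested.

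In RV, where 10.3% of all genes were called and 4.19% were lower, 5 of 37 complex I genes were lower, 2 of 9 of complex III, none of 14 of complex IV and none of 16 of complex V, with medians of -0.11 to -0.14. Of 12 stability genes 2 fell, Lrpprc (-0.31, SE 0.06; edgeR adjusted p = 0.00502) and Grsf1, an RNA granule protein (-0.22, SE 0.05; 0.00399). Of 10 regulators 5 fell, with Perm1 at -1.27, Esrrg at -0.44, Ppargc1b at -0.41, Ppargc1a at -0.27 and Esrra at -0.16. Of 17 tRNA synthetases 3 fell. None of the transcription, replication or processing genes passed. In the whole heart, where no mitochondrial gene passed and 4.03% of all genes were called (2.07% lower), 5 of 37 complex I, 3 of 9 complex III, 3 of 14 complex IV and 5 of 16 complex V nuclear genes were lower and none was higher (medians -0.22 to -0.30). There Lrpprc (-0.28), Fastkd1 (-0.35) and Perm1 (-1.55) fell. The medians of these nuclear lists were negative in the whole heart while that of the 13 mitochondrial protein genes was 0.07, a contrast that was not tested. The markers of other cell types given above for RV and the whole heart moved in these libraries too, and their part in these counts was not tested.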

How the data were processed

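RNA from whole hearts or isolated ventricles was isolated with TRIzol and made into libraries with a stranded mRNA kit, per the labels' protocols. Per the submitters' processing notes, the authors used Salmon 1.2.1 and DESeq2 1.22.2 with the build GRCm38.p6. The deposited files give estimated counts and TPM per transcript, neither scaled between libraries beyond the definition of TPM. They also give the authors' effective lengths in bases, which were used only to judge TPM and for length-scaled counts. Transcripts were matched to GENCODE M21 (140137 of 140658, the rest holding at most 0.204% of reads), summed to genes and rounded. Genes were filtered with filterByExpr, scaled by TMM factors and tested with the quasi-likelihood F test of edgeR 4.0.16, run under R 4.3.3. The 6 whole heart libraries were fitted alone and the 16 ventricle libraries together, with Benjamini-Hochberg adjustment over all genes tested and a threshold of 0.05. The SE is the log2 fold change divided by the square root of F. Calculations were checked on simulated data. Nuclear copies were found with blastn 2.17.0 (at least 90% identity). Depth was 14486495 to 61887531 reads in genes per library. Members, gene lists and tests were chosen with earlier results of these data known. All members were named where usable. Nuclear genes named in the text were picked from the up to 5 called genes with the smallest p per list and comparison, and not all of these are named. Alternatives were other scalings, filters, DESeq2 1.42.0, limma 3.58.1 on log2(TPM + 1), length-scaled counts, a replicate block, other sets of libraries, each library left out in turn and, added after seeing the data, nuclear copies summed with their members. The labels number the replicates, but same-numbered libraries of 2 groups correlated between -0.15 and 0.20 in their deviations from the group means, so the numbers were not taken to pair them.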

Additional observations from a re-analysis of the deposited data

Results flagged for a closer look

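Sets of 4 libraries (1 quantity in 1 ventricle group) were examined for a library far from the other 3. The 84 sets covered the usable mitochondrial genes, 3 read shares and the ratio of mt-Nd5 to mt-Nd1. Such a library was found in 2 sets. Chance alone flags about 1 in 20 sets, so 2 of 84 is no more than chance gives. Both flagged sets concern LV cKO 4. There mt-Co2 was at 5444 CPM against 5875 to 5943 in the other LV cKO libraries and mt-Cytb at 5561 CPM against 6278 to 6395. This library also had the lowest mitochondrial share of its group, 5.34%. Without it mt-Cytb no longer passed in LV (-0.14, adjusted p = 0.125), and 7 members passed there.

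In edgeR's test of the difference between the ventricles' log2 fold changes, none of the 17 usable mitochondrial genes passed. Among all genes tested 1.43% did, 0.973% of all as lower. The contrast between mitochondrial and nuclear genes was not tested. From the 10 nuclear lists 9 genes passed, each with a more negative cKO effect in LV. Of 14 complex IV genes 4 passed: Cox7a1, Cox6a1, Cox5b and Cox8a, which differed by -0.75, -0.37, -0.33 and -0.31. Of 37 complex I genes 1 passed, Ndufs7 (-0.41), and of 10 regulators 1, Ppargc1a (-0.58). Of 17 tRNA synthetase genes Ears2, for glutamyl-tRNA, passed (-0.52). Of 14 processing genes the rRNA methyltransferase gene Mrm1 passed (-0.53), and of 13 replication genes the mitochondrial helicase gene Twnk (-0.38). Their adjusted p-values lay between 0.00176 (Ppargc1a) and 0.0466 (Mrm1). Prdm16 itself differed by -0.44 (adjusted p = 0.0404). The ventricular marker gene Irx4 differed by -0.53 (adjusted p = 0.0133), and the part of either gene in the other differences was not tested.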

How the results depend on the processing

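No called mitochondrial gene reversed its direction under any alternative run. In LV, between 7 and 10 members passed as lower when 1 library was left out, and 5 passed with limma on log2(TPM + 1), against 9. In RV the count of 2 became 5 with library totals, 6 with DESeq2, 0 with limma on TPM, 0 with length-scaled counts, 1 with the RV libraries fitted alone and 1 to 4 with 1 library left out. In the whole heart, DESeq2 and the joint fit of all tissues each gave 1 against 0. For LV against RV, the control count of 4 became 2 with limma on TPM, 2 with length-scaled counts and 3 to 6 with 1 library left out. The cKO count of 9 lower became 5 with library totals, 3 with limma on TPM and 6 to 9 with 1 library left out; without LV cKO 3, 1 member (mt-Nd6, 0.83) passed as higher. With the replicate block, 6 members were lower in RV and 7 in LV against RV controls, and in LV 10 passed; the block changed no call in the whole heart and left the count at 9 for LV against RV in cKO. Libraries correlated best with their own number in every case for LV against RV in cKO (0.05 to 0.20) but not in the other comparisons. The causes of these moves were not tested. Mean shares moved by less than 1 SD when 1 library was left out (LV cKO 5.63% to 5.81%, LV control 6.54% to 6.73%, RV cKO 6.08% to 6.35%, RV control 6.84% to 7.08%, whole heart cKO 5.41% to 5.71% and control 5.06% to 5.67%).

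Counts over all genes, higher and lower, were 376 and 397 in the whole heart, and became 805 and 922 with DESeq2, 803 and 1209 with all tissues fitted together, 133 and 85 with the block, 91 and 47 with length-scaled counts, 64 and 18 with limma on TPM and 649 and 643 without control 1. In LV they were 2017 and 2199 (1300 and 1383 with length-scaled counts, 933 lower with limma on TPM). In RV they were 1007 and 689 (527 and 297, 452 and 269, and 661 and 391 fitted alone; 1185 lower without control 2). For the difference between ventricles they were 76 and 160 (167 and 300 with DESeq2, 31 and 15 with limma on TPM, 18 and 39 with length-scaled counts). For LV against RV, limma on TPM and length-scaled counts gave 896 and 491, and 751 and 934, in control, and 933 lower, and 1336 and 1872, in cKO. At these depths the 19 lowest tRNA genes cannot be compared, and the limit for a count of 0 covers counting error only.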
